A study of Mus musculus with 13 samples.

Results

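The genes described here are 9 genes of the NRF2 antioxidant response, chosen by symbol from the 27141 genes of the count and FPKM tables: Nfe2l2, Keap1, Nqo1, Gclc, Gclm, Slc7a11, Txnrd1, Srxn1 and Hmox1. RNA was sequenced from damaged hepatocytes (dHeps) of wild-type mice whose livers had been injured with carbon tetrachloride (CCl4), after 16 days of culture. The study's methods describe C57BL/6-background mice, isolation of the hepatocytes by collagenase perfusion, and serum-free hepatocyte maintenance medium, which all groups shared. The 13 libraries formed 7 groups. The solvent dimethyl sulfoxide (DMSO), the complete cocktail (5C), and 5C without GSK429286A (5C-G), without CID755673 (5C-C), without ETC-1002 (5C-E) and without forskolin (5C-F) had 2 libraries each, and 5C without Salidroside (5C-S) had 1. GSK429286A inhibits ROCK, CID755673 inhibits protein kinase D, ETC-1002 activates AMPK, forskolin activates adenylate cyclase, and Salidroside is a plant glycoside. The comparisons ask how the cocktail changed these genes relative to the solvent, and how leaving out each compound changed them relative to 5C.

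NRF2, encoded by Nfe2l2, is a transcription factor that in unstressed cells is held by KEAP1, an adaptor of the CUL3 ubiquitin ligase, and is steadily degraded. Oxidants and electrophiles modify KEAP1, NRF2 then escapes degradation, enters the nucleus, pairs with a small MAF protein and binds antioxidant response elements near genes for glutathione synthesis, thiol reduction, quinone detoxification and heme breakdown. In the liver this response is known for protecting hepatocytes from reactive metabolites, CCl4 being a classic source of them. NRF2 is controlled largely at the protein level, and the libraries measured RNA only.

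Total counts per library ran from 30195867 to 45491932, and all 9 genes passed the filter on low counts, with counts from 98 (Nqo1, DMSO) to 13047 (Nfe2l2, 5C-F). No pair of libraries was a duplicate deposit, the chi-square per degree of freedom between them running from 8.32 (DMSO) to 93.8 (5C-G). The tables' columns name the group but could not be matched to single samples, so the libraries of a group are called A and B, and these letters pair nothing between groups. The study's methods say that n counts separate biological replicates, but the labels do not say which cultures or mice the libraries came from, so p-values measure the spread between these samples. All 8 hepatocyte markers examined (Alb, Ttr, Apoa1, Hnf4a, Serpina1c, Cps1, Asgr1 and Tat) were above 0.1 FPKM on average in every group. Their sum was 10502 to 11733 FPKM in DMSO, 10821 to 10849 in 5C, 6408 to 7713 in 5C-G, 4558 to 4961 in 5C-C, 3027 to 3523 in 5C-E, 17043 to 21440 in 5C-F and 7031 in 5C-S. Macrophage markers were also present, and their sums are given with Hmox1.

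Coordinates are those of GRCm39 with the GENCODE annotation, in which all 9 genes are protein-coding. The counts cover the exons of each gene as a whole. Nfe2l2 (ENSMUSG00000015839) lies at chr2:75504739-75534985 on the minus strand and Keap1 (ENSMUSG00000003308) at chr9:21141026-21150679 on the minus strand. Nqo1 (ENSMUSG00000003849) lies at chr8:108113835-108129934 on the minus strand, and Hmox1 (ENSMUSG00000005413) at chr8:75820241-75827217 on the plus strand. Gclc (ENSMUSG00000032350) lies at chr9:77661797-77701770, Gclm (ENSMUSG00000028124) at chr3:122039126-122065061, Txnrd1 (ENSMUSG00000020250) at chr10:82669785-82733546 and Srxn1 (ENSMUSG00000032802) at chr2:151947436-151957687, all on the plus strand. Slc7a11 (ENSMUSG00000027737) lies at chr3:49846975-50398070 on the minus strand. Exons of Nfe2l2, Keap1, Gclm and Srxn1 overlap exons of other annotated genes, mostly opposite-strand long non-coding RNAs. Whether the counting used strand is not given in the sources used here, so reads of the overlap cannot be assigned with certainty. Of those overlapping genes, the ones with rows in the table had low counts, 14 to 58 for E030042O20Rik over Nfe2l2, 4 to 113 for Gm16754 over Keap1 and 0 to 27 for Gm17494 over Gclm.

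The antioxidant response element core, searched as TGACNNNGC on both strands from 250 bases before to 50 bases after the start of the canonical transcript, was found in 3 of the 9 genes (Gclm, Txnrd1 and Srxn1) and in 13.3% of 17390 protein-coding promoters of this length. The AP-1-like motif TGANTCA, which reads the same on both strands and does not overlap those matches, was found in 1 of the 9 genes (Srxn1, at 2 places) and in 6.32% of the promoters. These matches describe letters in a window and show no binding. Further elements may lie outside it. The upstream sequences of Gclc and Gclm are shown whole, since these genes had the most similar levels of any pair described below, and the windows of Txnrd1 and Srxn1 are shown for their matches. All are from GRCm39, 5′ to 3′ on the gene's own strand, which is the plus strand in each case, with the matched motif in capitals. The Gclc run (chr9:77661547-77661796) and the Gclm run (chr3:122038876-122039125) end at the base before the start. The Gclm match occupies positions -54 to -46 and lies on the opposite strand, as does that of Txnrd1 (-65 to -57, window chr10:82694932-82694972). The Srxn1 match to the antioxidant response element core lies after its start, at 28 to 36, and is not printed. The Srxn1 windows shown hold its AP-1-like matches, which begin at -102 (chr2:151947326-151947364) and at -45 (chr2:151947383-151947421).
Gclc: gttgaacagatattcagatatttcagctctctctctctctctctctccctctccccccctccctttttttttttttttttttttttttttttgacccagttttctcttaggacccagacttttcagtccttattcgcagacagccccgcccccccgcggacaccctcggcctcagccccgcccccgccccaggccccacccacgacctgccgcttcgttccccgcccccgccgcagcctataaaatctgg
Gclm: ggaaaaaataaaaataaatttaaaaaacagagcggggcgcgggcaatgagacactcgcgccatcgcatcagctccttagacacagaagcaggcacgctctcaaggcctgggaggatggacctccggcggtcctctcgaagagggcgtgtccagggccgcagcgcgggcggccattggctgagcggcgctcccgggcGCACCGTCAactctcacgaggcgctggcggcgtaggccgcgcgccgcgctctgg
Txnrd1: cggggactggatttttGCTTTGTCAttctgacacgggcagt
Srxn1, first AP-1-like match: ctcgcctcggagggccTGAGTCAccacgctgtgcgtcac
Srxn1, second AP-1-like match: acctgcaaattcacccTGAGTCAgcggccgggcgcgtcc
Gclc held neither motif in its window, while Gclm held the antioxidant response element core 46 bases before its start.

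Levels are given as FPKM (fragments per kilobase of transcript and per mapped fragments), the deposited scale that takes account of gene length, and values are listed as library A and library B. Hmox1 and Nfe2l2 were the most abundant of the 9 genes in every group, and Slc7a11 the least, at or below 1.70 FPKM throughout. In bulk RNA, fewer cells of a type and less RNA per cell cannot be told apart.

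**Figure D1:**
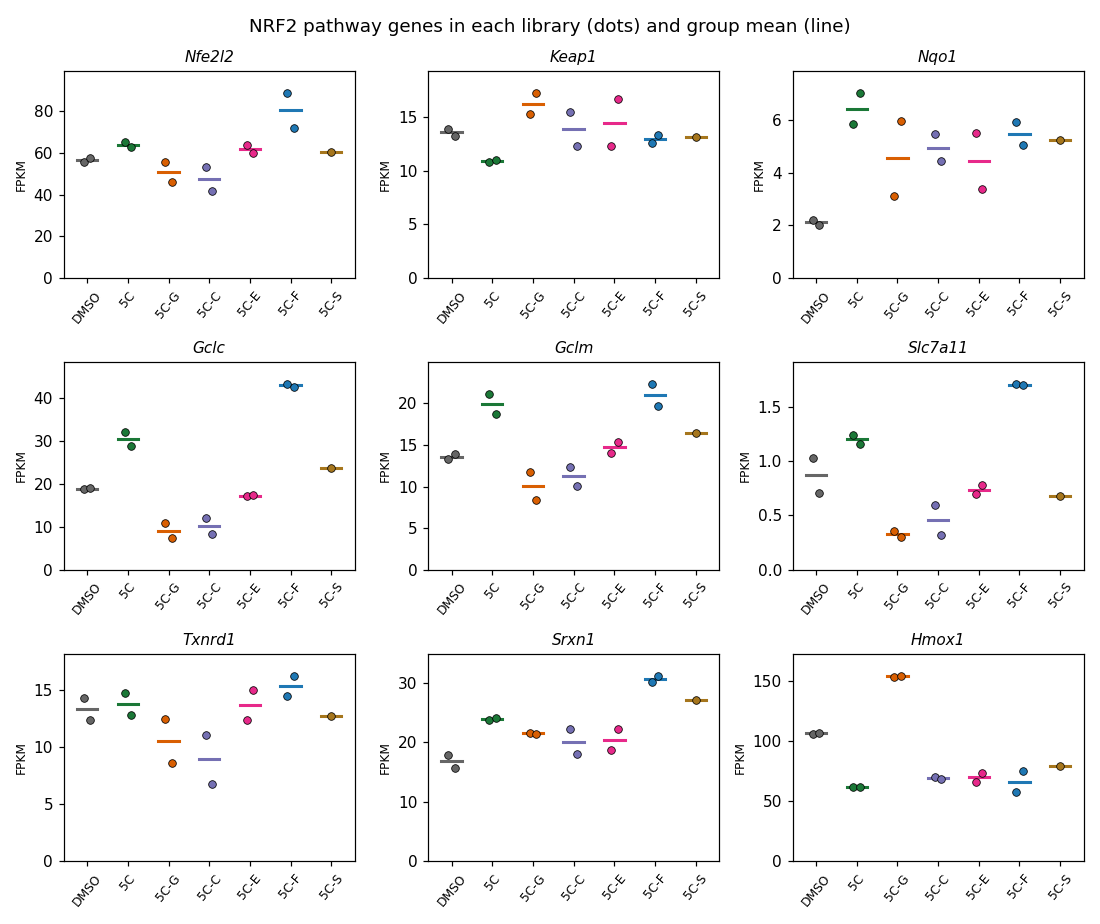
FPKM of the 9 genes in each of 13 libraries, 1 panel a gene, with dots for libraries and a line for the group mean (vertical axes start at 0 and differ between panels). Gclc ran from 7.33 FPKM in a 5C-G library to 43.3 in a 5C-F library, and Hmox1 was highest in both 5C-G libraries.

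Nfe2l2, the gene of NRF2 itself, was at 55.6 and 57.7 FPKM in DMSO, 65.1 and 62.9 in 5C, 55.5 and 46.1 in 5C-G, 53.1 and 41.5 in 5C-C, 63.9 and 60.1 in 5C-E, 88.8 and 72.0 in 5C-F, and 60.7 in 5C-S. The 5C-F libraries were above all others and the 5C-C libraries below those of DMSO, 5C, 5C-E and 5C-F, while 5C-G and 5C-C overlapped. No neighbouring groups in the order of mean level differed beyond their spread (edgeR adjusted p from 0.114 to 0.997). Further apart in the order, Nfe2l2 was below its 5C-F level in 5C-C (log2 -0.71, adjusted p = 0.00864), 5C-G (-0.64, 0.0197) and 5C-E (-0.55, 0.0362). Keap1, the gene of the NRF2 inhibitor, was at 13.9 and 13.2 FPKM in DMSO, 10.8 and 10.97 in 5C, 15.2 and 17.2 in 5C-G, 15.4 and 12.3 in 5C-C, 12.3 and 16.6 in 5C-E, 12.6 and 13.3 in 5C-F, and 13.1 in 5C-S. Both 5C libraries were the lowest of the 13, and the other groups overlapped in part, with no neighbouring groups past the test (adjusted p from 0.182 to 0.924). The ratio of Nfe2l2 to Keap1 in FPKM was 6.03 and 5.74 in 5C, 7.07 and 5.42 in 5C-F, 5.21 and 3.61 in 5C-E, 4.01 and 4.37 in DMSO, 3.65 and 2.68 in 5C-G, 3.44 and 3.37 in 5C-C, and 4.64 in 5C-S. The ratio was lower in all 5C-G and 5C-C libraries than in any other library except 5C-E B, which lay at 3.61 just below 5C-G A.

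Nqo1, a quinone reductase often used as a readout of NRF2, was at 2.22 and 2.02 FPKM in DMSO, 5.83 and 7.02 in 5C, 3.10 and 5.97 in 5C-G, 5.45 and 4.43 in 5C-C, 5.50 and 3.37 in 5C-E, 5.90 and 5.04 in 5C-F, and 5.23 in 5C-S. The DMSO libraries lay below every library that had received compounds. All groups with compounds overlapped with a neighbour, and the 2 libraries of 5C-G and of 5C-E stood far apart.

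Gclc and Gclm encode the catalytic and the modifier subunit of glutamate-cysteine ligase, which carries out the first and rate-limiting step of glutathione synthesis. Gclc was at 18.8 and 19.0 FPKM in DMSO, 32.1 and 29.0 in 5C, 10.8 and 7.33 in 5C-G, 12.1 and 8.26 in 5C-C, 17.1 and 17.5 in 5C-E, 43.3 and 42.8 in 5C-F, and 23.7 in 5C-S. The groups separated completely except 5C-G and 5C-C, which overlapped at the bottom. Of neighbours in this order, 5C-E and 5C-C differed (edgeR log2 fold change 0.53 of 5C-E over 5C-C, adjusted p = 0.0435), and the steps from 5C-F to 5C (adjusted p = 0.0524) and from 5C to DMSO (0.0644) narrowly missed the threshold of 0.05. Gclm was at 13.3 and 13.9 FPKM in DMSO, 21.1 and 18.8 in 5C, 11.8 and 8.41 in 5C-G, 12.4 and 10.04 in 5C-C, 14.1 and 15.4 in 5C-E, 22.3 and 19.7 in 5C-F, and 16.5 in 5C-S. The order of groups was nearly that of Gclc, with 5C and 5C-F overlapping at the top and 5C-G and 5C-C at the bottom, and no neighbours past the test. The ratio of Gclc to Gclm was 1.94 and 2.17 in 5C-F, 1.52 and 1.54 in 5C, 1.42 and 1.37 in DMSO, 1.22 and 1.14 in 5C-E, 0.916 and 0.872 in 5C-G, and 0.979 and 0.823 in 5C-C. Gclc thus moved over a wider range than Gclm.

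Slc7a11 encodes the cystine transporter xCT, which brings in the cysteine used for glutathione. It was at 1.03 and 0.707 FPKM in DMSO, 1.24 and 1.16 in 5C, 0.355 and 0.303 in 5C-G, 0.598 and 0.318 in 5C-C, 0.698 and 0.776 in 5C-E, 1.70 and 1.70 in 5C-F, and 0.680 in 5C-S. Although low per length, the gene was counted well, with 154 to 995 counts per library. The 5C-F libraries were the highest, followed by those of 5C, and the 5C-G and 5C-C libraries were the lowest and overlapped, with no neighbours past the test (adjusted p from 0.170 to 0.576).

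Over the 13 libraries, the gene most like Gclc in log2 CPM was Gclm (Pearson r = 0.97), and Gclc was in turn the gene most like Gclm and like Slc7a11 (r = 0.96). After Gclm, Gclc was most like Errfi1 and Mat1a (both 0.97), Gclm like Errfi1 (0.96), and Slc7a11 like Fer1l6 (0.96) and Anks4b (0.95). These correlations describe 13 points that share groups, depth and base composition, and no test was made of them.

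**Figure D2:**
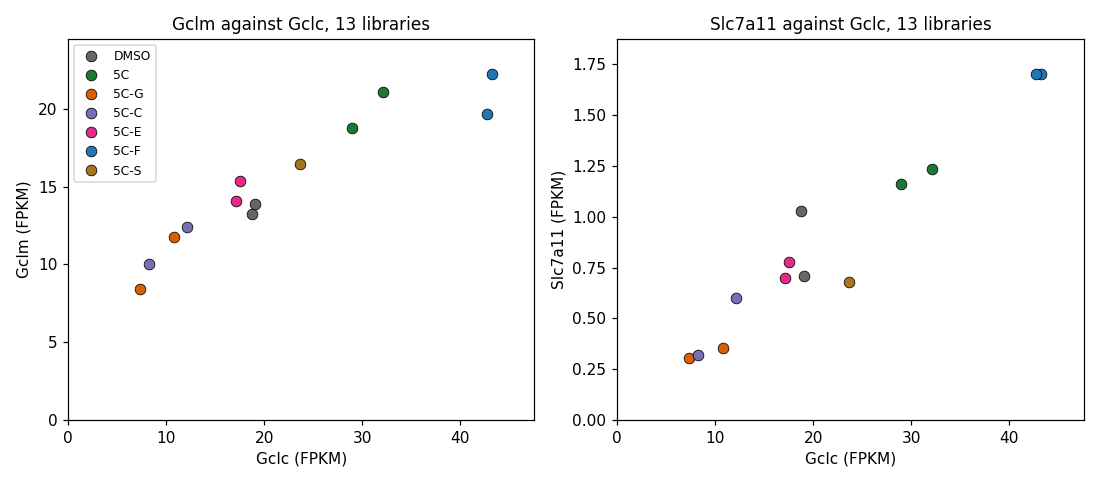
Gclm (left) and Slc7a11 (right) against Gclc, all in FPKM, with 1 dot for each of 13 libraries coloured by group. Levels ran together from the 5C-G and 5C-C libraries at the lower left to the 5C-F libraries at the upper right, with Pearson r = 0.97 for Gclm and 0.96 for Slc7a11 on log2 CPM.

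Txnrd1, the cytosolic thioredoxin reductase, was at 14.4 and 12.4 FPKM in DMSO, 14.8 and 12.8 in 5C, 12.5 and 8.58 in 5C-G, 11.1 and 6.75 in 5C-C, 12.4 and 15.0 in 5C-E, 14.5 and 16.3 in 5C-F, and 12.8 in 5C-S. Groups overlapped at every step of the order, and no neighbours passed the test (adjusted p from 0.374 to 0.927). Further apart in the order, Txnrd1 was lower in 5C-C than in 5C-F (edgeR log2 -0.72, adjusted p = 0.0246). Srxn1, sulfiredoxin, which restores overoxidized peroxiredoxins, was at 17.9 and 15.6 FPKM in DMSO, 23.7 and 24.2 in 5C, 21.6 and 21.4 in 5C-G, 22.2 and 18.0 in 5C-C, 18.6 and 22.2 in 5C-E, 30.1 and 31.2 in 5C-F, and 27.1 in 5C-S. The DMSO libraries were below all others and the 5C-F libraries above all others, but no neighbours passed the test (adjusted p from 0.103 to 0.965). Further apart in the order, Srxn1 was lower in 5C-E (edgeR log2 -0.75, adjusted p = 0.00658) and 5C-C (-0.54, 0.0372) than in 5C-F. For 5C-G against 5C-F it did not pass (-0.47, 0.0926).

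Hmox1 encodes heme oxygenase 1, which splits heme into biliverdin, carbon monoxide and iron and is also known for high expression in macrophages. It was at 106 and 107 FPKM in DMSO, 61.4 and 61.4 in 5C, 153 and 154 in 5C-G, 69.7 and 67.9 in 5C-C, 65.9 and 73.4 in 5C-E, 57.1 and 74.6 in 5C-F, and 78.8 in 5C-S. The 5C-G libraries were above those of DMSO (adjusted p = 0.0249), and DMSO above 5C-E (0.00596), while 5C, 5C-C, 5C-E and 5C-F each overlapped or adjoined the next and did not pass. All 12 macrophage markers examined (Adgre1, Csf1r, Cd68, Clec4f, Cd5l, C1qa, C1qb, Marco, Vsig4, Timd4, Lyz2 and Ptprc) were measured. Their summed level was 4864 to 4902 FPKM in DMSO, 516 to 598 in 5C, 4898 to 6901 in 5C-G, 961 to 1615 in 5C-C, 689 to 807 in 5C-E, 1631 to 1953 in 5C-F and 622 in 5C-S. Timd4 averaged under 0.1 FPKM in 5C, 5C-C, 5C-E, 5C-F and 5C-S, and Clec4f in 5C, 5C-E and 5C-S. On log2 CPM, Hmox1 had a Pearson r of 0.89 with this sum over the 13 libraries, Keap1 of 0.65, and the other members from -0.48 (Gclm and Nqo1) to -0.09 (Txnrd1). The genes most like Hmox1 were Ctsk (0.97), Cdkn2b and Hexa (both 0.96). The DMSO and 5C-G libraries had the highest marker sums and the highest Hmox1 levels. In 5C-F the marker sum was above that of 5C-E while Hmox1 overlapped between both groups. The part of the macrophages in the Hmox1 values was not tested.

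**Figure D3:**
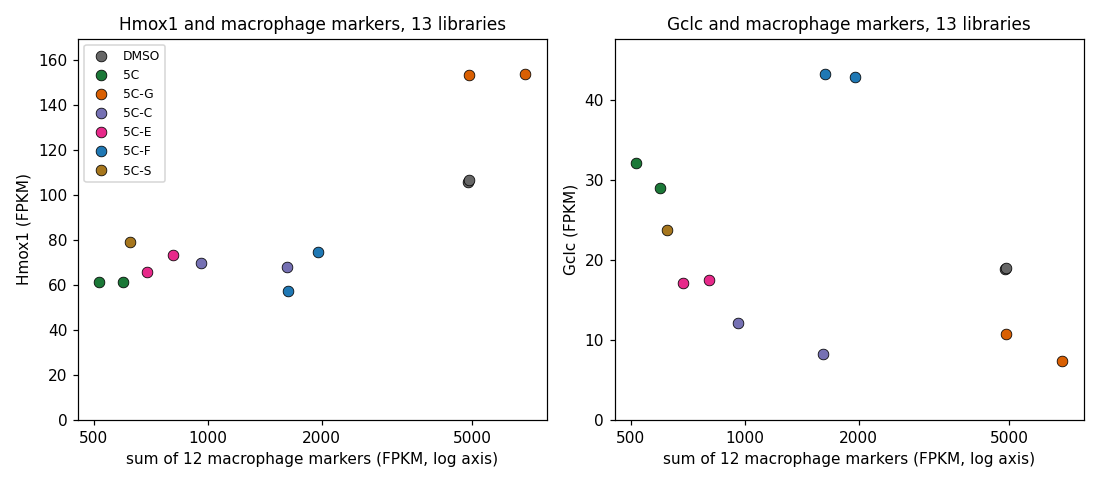
Hmox1 (left) and Gclc (right) in FPKM against the summed FPKM of 12 macrophage markers on a log axis, with 1 dot for each of 13 libraries coloured by group. The DMSO and 5C-G libraries, with sums of 4864 FPKM and more, had the 4 highest Hmox1 levels, whereas Gclc at those sums lay between 7.33 and 19.0 FPKM and at low sums covered a wide range.

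The remaining members had their nearest genes elsewhere. Nfe2l2 was most like Ubqln2 (0.96), Elovl7 (0.95) and Tgfa (0.93), and its r with Gclc was 0.86 and with Gclm 0.85. Keap1 was most like Dctn1 (0.96), Riox1 and Clptm1l (both 0.95). Nqo1 was most like Gsdme (0.90), Cdkn1c and Gstm4 (both 0.87), and had an r of only 0.16 with Gclc. Txnrd1 was most like Lrrc8d and Fbxo21 (both 0.95), and Srxn1 like Acaa1b (0.92), Ttc27 and Tmem82 (both 0.89).

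Differences were tested with edgeR's quasi-likelihood test over all 19884 genes kept, and a gene passed at a Benjamini-Hochberg adjusted p under 0.05. Fold changes are given as log2 ± SE from this fit, with 2 libraries in each group compared. The comparisons with 5C share the 5C libraries and those with DMSO share the DMSO libraries, so results within each set are not independent of each other.

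**Figure D4:**
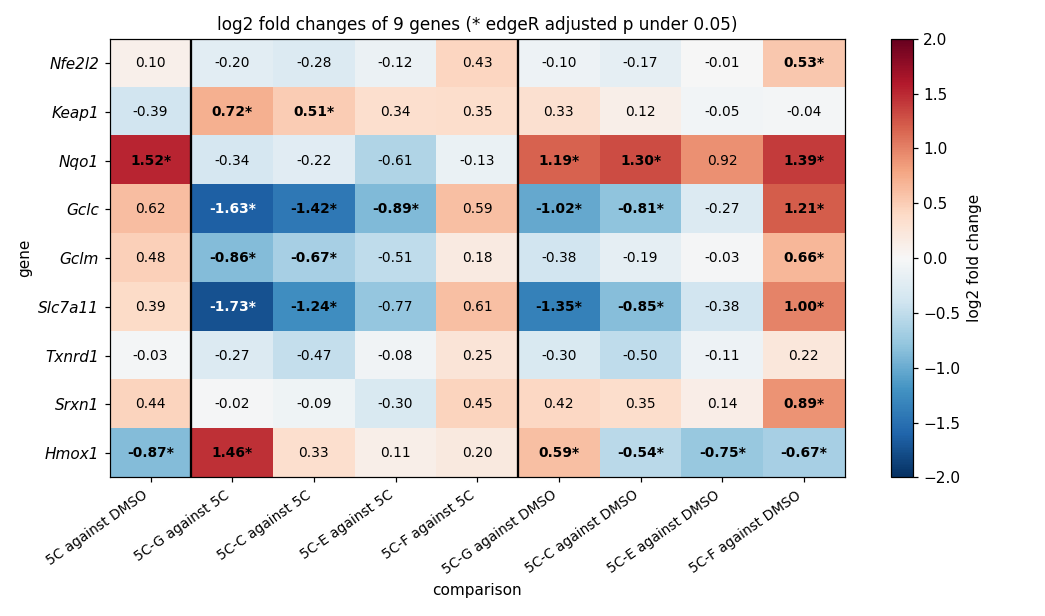
log2 fold changes of the 9 genes (rows) in 9 comparisons (columns), red for higher and blue for lower in the group named first, with an asterisk where the edgeR adjusted p was under 0.05. Gclc, Gclm and Slc7a11 are blue in all columns of a compound left out against 5C except 5C-F, and Nqo1 is red in all columns against DMSO.

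In 5C against DMSO, Nqo1 was 2.88-fold higher and Hmox1 1.82-fold lower, and the other 7 genes did not pass. Thus 2 of 9 members passed, where 6.34% of all genes tested did. The log2 fold change of Nqo1 was 1.52 ± 0.36 (adjusted p = 0.0140) and that of Hmox1 was -0.87 ± 0.17 (adjusted p = 0.00248). Leaving out any 1 of the 4 libraries left only 1 of these 2 calls, since Nqo1 was lost without DMSO A (adjusted p = 0.107), DMSO B (0.150) or 5C B (0.129), and Hmox1 without 5C A (0.0555). Gclc was at 0.62 ± 0.19 (adjusted p = 0.0644), and passed with DESeq2 (0.61, adjusted p = 0.0211). Gclm was at 0.48 ± 0.18 (0.139), Srxn1 at 0.44 ± 0.17 (0.181), Slc7a11 at 0.39 ± 0.28 (0.528), Keap1 at -0.39 ± 0.19 (0.310), Nfe2l2 at 0.10 ± 0.17 (0.837) and Txnrd1 at -0.033 ± 0.21 (0.977). For the last of these the sign differed between settings.

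The counts of related lists in 5C against DMSO stand beside the 6.34% of all genes that passed. Among related genes, 6 of 16 glutathione S-transferase, detoxification and export genes rose in 5C against DMSO and none fell, the list median being 0.53 (log2) and that of all genes 0.01. The largest were Gstm3 (6.13) and Gsta2 (2.92), conjugating enzymes from families of near-identical copies, so that their values are uncertain. Of 6 heme and iron genes 2 fell, Blvrb (-0.86), a biliverdin reductase, and Hmox2 (-0.64), the constitutive heme oxygenase. Of 12 macrophage markers 10 were lower in 5C than in DMSO (list median log2 -3.01), and their part in the values of the related genes was not tested. Of 7 ATF4 stress response genes 3 fell, among them Chac1 (-1.01), a glutathione-degrading enzyme, and Atf3 (-0.96), a stress transcription factor. Of 11 glutathione genes only Gpx3, the plasma glutathione peroxidase, passed, at 0.69, a share near that of all genes. Of 13 alternatives, 7 each ended the calls of Hmox2 and Atf3, 6 that of Blvrb and 5 each those of Chac1 and Gpx3. For Gsta2 1 of 12 ended it, and its value ran from 1.55 to 3.91. With edgeR 0 of the 12 NRF2 partners and regulators, 11 thioredoxin and peroxiredoxin genes, 7 NADPH supply genes and 4 superoxide dismutase and catalase genes passed. In these lists 1, 2, 1 and 0 genes had an unadjusted p under 0.05, and DESeq2 passed 1 gene, of NADPH supply.

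Of the 4 compounds tested by removal, leaving out the ROCK inhibitor gave the most members past the test against 5C, though not with the GC and length offset described below, under which 3 passed here and 4 without forskolin, nor with DESeq2, which passed 5 here and 5 without the protein kinase D inhibitor. In 5C-G against 5C, Gclc was 3.10-fold lower, Slc7a11 3.33-fold lower and Gclm 1.82-fold lower, while Hmox1 was 2.75-fold and Keap1 1.64-fold higher. Thus 5 of 9 members passed, where 25.6% of all genes tested did. The log2 fold changes were -1.63 ± 0.19 for Gclc (adjusted p = 1.7e-05), -1.73 ± 0.29 for Slc7a11 (0.000395), -0.86 ± 0.18 for Gclm (0.00207), 1.46 ± 0.17 for Hmox1 (1.2e-05) and 0.72 ± 0.19 for Keap1 (0.0109). The other 4 did not pass, with -0.20 ± 0.17 for Nfe2l2 (0.419), -0.34 ± 0.35 for Nqo1 (0.525), -0.27 ± 0.21 for Txnrd1 (0.390) and -0.02 ± 0.17 for Srxn1 (0.965). The Keap1 call was lost without 5C A (adjusted p = 0.0933), 5C B (0.0865) or 5C-G B (0.116). Of the macrophage markers 10 of 12 were higher in 5C-G than in 5C (median log2 3.30), of 10 stellate cell and fibroblast markers 6 were higher and 3 lower, and of 8 hepatocyte markers 5 were lower and 1 higher. Their part in the values of the members and of the related genes below was not tested.

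Leaving out the protein kinase D inhibitor gave lower Gclc, which was the member that also passed with the offset described below. In 5C-C against 5C, Gclc was 2.68-fold, Slc7a11 2.36-fold and Gclm 1.59-fold lower, and Keap1 was 1.42-fold higher. Thus 4 of 9 members passed, where 35.8% of all genes tested did, a share close to that of all genes. The log2 fold changes were -1.42 ± 0.19 for Gclc (adjusted p = 6.6e-05), -1.24 ± 0.28 for Slc7a11 (0.00257), -0.67 ± 0.18 for Gclm (0.00686) and 0.51 ± 0.19 for Keap1 (0.0462). Hmox1 was at 0.33 ± 0.16 (0.133), Nfe2l2 at -0.28 ± 0.17 (0.231), Txnrd1 at -0.47 ± 0.21 (0.0958), Nqo1 at -0.22 ± 0.35 (0.670) and Srxn1 at -0.09 ± 0.17 (0.727). The Txnrd1 value depended on the libraries, at -0.82 when 5C-C A was left out and -0.18 when 5C-C B was. Without 5C A 2 members passed, the calls of Gclm (adjusted p = 0.0701) and Keap1 (0.197) being lost. The Keap1 call was also lost without 5C B (0.130) or 5C-C A (0.196), and the Gclm call without 5C-C B (0.0716). Of 8 hepatocyte markers 5 were lower and 1 higher in 5C-C than in 5C, of 12 macrophage markers 7 were higher and 1 lower, and of 10 stellate cell and fibroblast markers 3 were higher and 5 lower, and their part was not tested.

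Some of these differences were smaller after a correction for GC content and transcript length together. The transcripts of Slc7a11 (40.7% GC) and Gclm (43.0% GC) were the lowest in GC content of the 9, and that of Keap1 (59.2% GC) the highest, and that of Slc7a11 was also the longest (13945 bases). An offset was therefore fitted for each library as an alternative, which removes the difference shared by genes of similar GC content and length. With it Gclc kept its differences, at -1.45 in 5C-G (adjusted p = 6.8e-06) and -1.17 in 5C-C (8.3e-05) against 5C. Slc7a11 remained lower in 5C-G, at -0.81 (adjusted p = 0.0376), but was at 0.043 in 5C-C (0.939). Gclm was at -0.32 in 5C-G (0.171) and 0.15 in 5C-C (0.540), and Keap1 at 0.27 (0.313) and -0.051 (0.880). Hmox1 remained higher in 5C-G, at 1.16 (2.4e-05). With the offset, therefore, 3 members passed in 5C-G (Gclc, Slc7a11 and Hmox1) and 1 in 5C-C (Gclc).

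**Figure D5:**
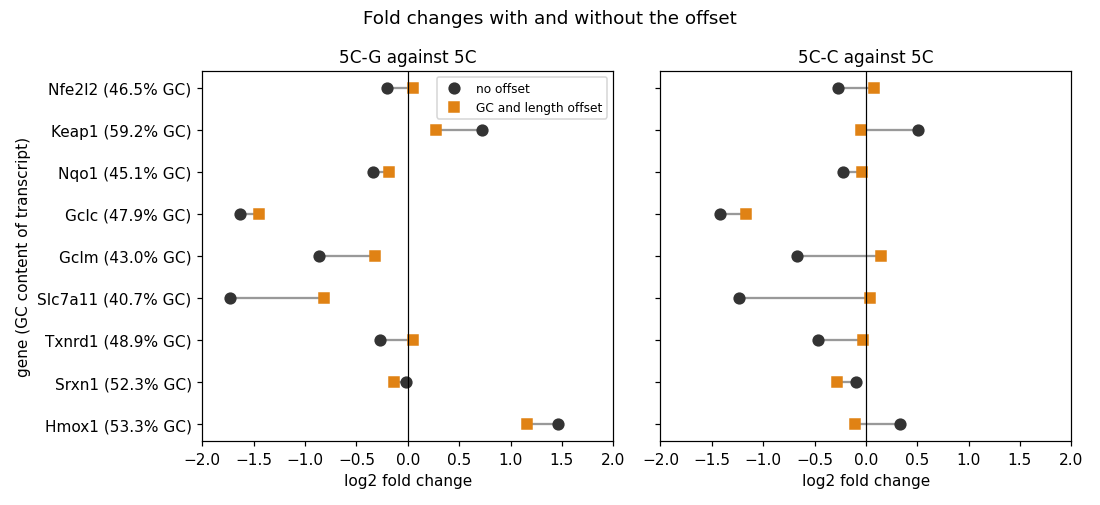
log2 fold changes of the 9 genes in 5C-G against 5C (left) and 5C-C against 5C (right), as circles without and squares after the composition offset, with each gene's transcript GC content in percent. Gclc stayed near its value in both panels, whereas Slc7a11 moved from -1.24 to 0.043 and Gclm from -0.67 to 0.15 in 5C-C.

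In the wider pathway, 5C-G against 5C had 4 of 6 heme and iron genes higher and 1 lower, with a list median of 1.09 against -0.01 for all genes. The counts of the lists here stand beside the 25.6% of all genes that passed. Blvrb (1.69) and Ftl1 (1.46), the ferritin light chain, rose, and Slc40a1 (-0.88), the iron exporter ferroportin, fell. With the offset Blvrb was at 1.22 and Ftl1 at 0.80, and Slc40a1 was at -0.27 and did not pass (adjusted p = 0.467). Of the 16 transferase, detoxification and export genes 7 fell and 1 rose, with a median of -0.57. The largest decreases were Abcc2 (-1.64), the canalicular export pump, and Gstm3 (-1.62), and Ephx1 (0.99), an epoxide hydrolase, rose. With the offset 5 of the 16 fell and 1 rose. Of 11 glutathione genes 4 rose, led by Slc3a2 (1.11), the heavy chain that carries xCT to the membrane, and Gpx4 (1.04), a lipid peroxide reductase, and 2 fell, Ggt1 (-1.22) and Gpx3 (-0.58). Gpx4 was at 0.39 with the offset (adjusted p = 0.137). Of 11 thioredoxin and peroxiredoxin genes 5 rose, led by Prdx5 (1.26) and Txn1 (0.77, but 0.39 with the offset, adjusted p = 0.138), and Txnip (-0.84), an inhibitor of thioredoxin, fell. Of 7 NADPH supply genes 3 rose, led by Pgls (1.22) and Taldo1 (1.19) of the pentose phosphate pathway, and Me1 (-0.75), malic enzyme, fell. Sod3 (0.78) and Sod1 (0.61) rose and Cat (-0.84), catalase, fell. Of 7 ATF4 stress response genes 5 rose, led by Atf3 (1.62) and Ddit3 (1.61). Of 12 partners and regulators only Cul3 (-0.62), the ligase scaffold that works with KEAP1, passed, and it was at -0.059 with the offset (0.843). The offset also moved Prdx5 to 0.65, Pgls to 0.68, Gpx3 to -1.02 and Sod1 to 0.99, all of which still passed. Of 13 alternatives, 7 each ended the calls of Sod1 (adjusted p up to 0.477) and Sod3 (up to 0.599), 6 that of Ggt1, 5 each those of Txn1 and Cul3, 4 that of Gpx3, 3 that of Slc40a1, 2 that of Me1 and 1 that of Gpx4.

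In 5C-C against 5C, the heme and iron list had 5 genes higher and 1 lower of 6, with a median of 1.08 against 0.00 for all genes. The counts of the lists below stand beside the 35.8% of all genes that passed in this comparison. Blvrb (1.44) and Fth1 (1.11), the ferritin heavy chain, rose and Slc40a1 (-1.41) fell, the last being at -0.53 with the offset (adjusted p = 0.110). Of 11 thioredoxin and peroxiredoxin genes 7 rose, led by Prdx5 (1.81) and Prdx2 (1.35), and Txnip (-1.01) fell, with a list median of 0.78. Of 11 glutathione genes 5 rose and none fell, led by Gpx4 (1.40) and Gpx1 (0.91), of which Gpx1 was at 0.052 with the offset (0.907). Of 7 NADPH supply genes 4 rose, led by Pgls (1.53) and Taldo1 (1.47), and Idh1 (-0.79) fell, which was at -0.33 with the offset (0.156). Sod1 (1.01) and Sod3 (0.93) rose and Cat (-0.94) fell. The 16 transferase, detoxification and export genes split into 3 higher, led by Cbr3 (1.37) and Gstp1 (1.30), and 3 lower, led by Aox1 (-1.54) and Abcc2 (-1.46), with Gstp1 at 0.52 with the offset (0.0635). Of 7 ATF4 stress response genes 3 rose, led by Ddit3 (2.69) and Trib3 (1.45). Of 12 partners and regulators 4 fell and 1 rose. This share and those of the transferase, glutathione and ATF4 stress response lists were near the one over all genes. Bach1 (-1.35), a repressor that competes with NRF2 for its sites, and Gsk3b (-1.05), a kinase that marks NRF2 for degradation, were the largest decreases, and Rbx1 (0.54) rose. With the offset Bach1 was at -0.83 and passed, and Gsk3b was at -0.28 and did not (0.323). The offset also moved Prdx5 to 0.94, Blvrb to 0.79, Pgls to 0.69, Trib3 to 0.68, Cbr3 to 0.59, Gpx4 to 0.50, Abcc2 to -0.67 and Aox1 to -0.98, and Sod1 to 1.54 and Rbx1 to 0.91, all of which still passed. Of 13 alternatives, 7 ended the call of Rbx1 and 4 each those of Gpx1 and Sod3.

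When the AMPK activator was left out, Gclc was the only member that passed. In 5C-E against 5C, Gclc was 1.85-fold lower, at -0.89 ± 0.19 (adjusted p = 0.0142), and with the GC and length offset at -0.84. Thus 1 of 9 members passed, where 2.94% of all genes tested did. This call did not hold when any 1 of the 4 libraries was left out (adjusted p from 0.107 to 0.183), although the value stayed between -0.91 and -0.83. Against 5C, 5C-E was lower in 5 of 8 hepatocyte markers and higher in 0. Of 10 stellate cell and fibroblast markers 2 were higher and 3 lower. The part of these markers in the Gclc value was not tested. Slc7a11 was at -0.77 ± 0.28 (0.177), Gclm at -0.51 ± 0.18 (0.159) and Nqo1 at -0.61 ± 0.35 (0.460), and the other members were closer to 0. Among the related lists only Gsta3 (-1.08), a transferase, passed, 1 of 16 in its list, and 3 of 13 alternatives ended its call. With the GC and length offset 4 genes of that list and 3 of 11 glutathione genes were lower and none of either higher.

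Leaving out forskolin gave no member past the test against 5C, where 10.7% of all genes tested passed. With edgeR, 0 of 9 passed, 4 had an unadjusted p under 0.05, and 3 passed with DESeq2 (Gclc, Nfe2l2 and Srxn1) and 0 with limma on log2(FPKM + 1). Gclc was 1.51-fold higher, at 0.59 ± 0.19 (adjusted p = 0.0524), Slc7a11 was at 0.61 ± 0.27 (0.170), Srxn1 at 0.45 ± 0.17 (0.103), Nfe2l2 at 0.43 ± 0.17 (0.114) and Gclm at 0.18 ± 0.18 (0.569). Keap1 was at 0.35 ± 0.19 (0.268), Txnrd1 at 0.25 ± 0.21 (0.484), Hmox1 at 0.20 ± 0.16 (0.488) and Nqo1 at -0.13 ± 0.35 (0.859). With the GC and length offset 4 members were higher, Slc7a11 at 1.27 (0.00418), Gclc at 0.75 (0.00746), Nfe2l2 at 0.62 (0.0229) and Gclm at 0.58 (0.0209). The hepatocyte marker sum was also higher in 5C-F than in 5C, as given above, as were 9 of 12 macrophage markers (list median log2 1.74, none lower) and 3 of 6 cholangiocyte markers. Their part in these values and in those of the related genes was not tested.

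Related genes in 5C-F against 5C are given beside the 10.7% of all genes that passed. Of the 16 transferase, detoxification and export genes 5 rose, led by Abcc4 (1.23), an export pump, and Gstp1 (0.91), and Gstm3 (-3.18) fell. Of 11 glutathione genes 3 rose, led by Slc3a2 (0.69) and Gss (0.67), glutathione synthetase. Of 7 NADPH supply genes 3 rose, led by Pgls (0.97) and Pgd (0.73). Of 6 heme and iron genes 2 rose, Ftl1 (0.92) and Blvrb (0.86), and of 7 ATF4 stress response genes 2 rose, Trib3 (1.30) and Ddit3 (1.23). Of 11 thioredoxin and peroxiredoxin genes Prdx6 (0.59) rose and of 12 partners and regulators Nfe2l3 (-0.98), a relative of NRF2, fell, both shares near that of all genes, the latter at -0.76 with the offset (adjusted p = 0.0621). Of 13 alternatives, 6 each ended the calls of Pgls, Ftl1, Slc3a2 and Nfe2l3, 5 each those of Gss, Gstp1, Blvrb and Prdx6, 4 that of Pgd, 3 each those of Abcc4 and Ddit3 and 1 that of Trib3, while that of Gstm3 held in all 13. The list medians lay between -0.15 (partners and regulators) and 0.47 (heme and iron), against -0.01 for all genes.

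The cocktail without forskolin was also compared with DMSO. In 5C-F against DMSO, 7 of 9 members passed, where 14.5% of all genes tested did. Nqo1 was 2.63-fold, Gclc 2.31-fold, Slc7a11 1.99-fold, Srxn1 1.86-fold, Gclm 1.58-fold and Nfe2l2 1.45-fold higher, and Hmox1 was 1.59-fold lower, while Keap1 and Txnrd1 did not pass. The log2 fold changes were 1.39 ± 0.36 for Nqo1 (adjusted p = 0.0157), 1.21 ± 0.19 for Gclc (0.000476), 1.00 ± 0.28 for Slc7a11 (0.0230), 0.89 ± 0.18 for Srxn1 (0.00253), 0.66 ± 0.18 for Gclm (0.0191), 0.53 ± 0.17 for Nfe2l2 (0.0458) and -0.67 ± 0.16 for Hmox1 (0.0117). All 7 also passed with the GC and length offset and with DESeq2, but Nfe2l2 did not pass with total counts alone (0.0654) or with limma on log2(FPKM + 1) (0.0671), and Nfe2l2, Gclm and Slc7a11 did not with limma at the smaller pseudocount. The count depended on the libraries, with 2 members passing without 5C-F A, 2 without DMSO A, 1 without DMSO B and 6 without 5C-F B, and Gclc was among those that passed in each case. Over all genes 1572, 874 and 1096 passed in the first 3 of these fits, against 2892 with every library. Of 12 macrophage markers 10 were lower in 5C-F than in DMSO (list median log2 -1.31), and of 10 stellate cell and fibroblast markers 4 were lower and 1 higher. Of 6 cholangiocyte markers 3 were higher (median 1.33), and of 8 hepatocyte markers 2 were higher and 0 lower (median 0.52). The part of all these markers in the values of the members was not tested. In this comparison 12 of the 16 transferase, detoxification and export genes, 5 of 11 glutathione genes, 5 of 11 thioredoxin and peroxiredoxin genes, 3 of 7 NADPH supply genes and 3 of 4 superoxide dismutase and catalase genes also rose, and none of these lists had a gene that fell. Of 6 heme and iron genes 1 rose, a share near that of all genes. Of 12 partners and regulators 1 fell and 0 rose (list median -0.36). With edgeR 0 of 7 ATF4 stress response genes passed, and 2 did with DESeq2.

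The cocktails without the ROCK or the protein kinase D inhibitor lay below the solvent in Gclc and above it in Nqo1, while Gclm did not pass in either. In 5C-G against DMSO, 4 of 9 members passed, where 14.5% of all genes tested did. These were Gclc (-1.02 ± 0.19, adjusted p = 0.00452), Slc7a11 (-1.35 ± 0.29, 0.00821), Hmox1 (0.59 ± 0.16, 0.0249) and Nqo1 (1.19 ± 0.36, 0.0371). Slc7a11 was at -0.56 (0.214) and Hmox1 at 0.32 (0.220) with the GC and length offset, and 2 members then passed, where 1949 of all genes did. Without 5C-G B none of the 9 passed, Nqo1 being at 0.52 (adjusted p = 0.545), and 1 passed without DMSO A and 2 without DMSO B. Over all genes the number that passed fell from 2879 to 312, 217 and 388 in these fits. In 5C-C against DMSO, 4 of 9 members passed, where 37.1% of all genes tested did, so that the share of members was near the background. These were Gclc (-0.81 ± 0.19, adjusted p = 0.00303), Slc7a11 (-0.85 ± 0.28, 0.0249), Hmox1 (-0.54 ± 0.16, 0.0163) and Nqo1 (1.30 ± 0.36, 0.00888). With the offset Slc7a11 was at 0.29 (0.445). When single libraries were left out it ran from -1.31 (without 5C-C A) to -0.48 (without 5C-C B). Without 5C-C B 1 member passed, and without DMSO A or DMSO B 2 did, while over all genes 4847, 4544 and 4983 passed against 7371 with every library. The Hmox1 call was lost without any 1 of the 4 libraries (adjusted p from 0.0605 to 0.114). Against DMSO, 10 of 12 macrophage markers were lower in 5C-C (list median log2 -2.24), and 1 was lower and 1 higher in 5C-G. Of 8 hepatocyte markers 4 were lower in 5C-C, and 5 were lower and 1 higher in 5C-G. Of 10 stellate cell and fibroblast markers 1 was higher and 4 lower in 5C-C, and 5 were higher and 1 lower in 5C-G. Of 6 cholangiocyte markers 3 were higher and 1 lower in 5C-C, and 1 was higher and 1 lower in 5C-G. The part of these markers was not tested.

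In 5C-E against DMSO, only Hmox1 passed, being 1.69-fold lower (-0.75 ± 0.16, adjusted p = 0.00596). Thus 1 of 9 members passed, where 8.62% of all genes tested did, a share close to that of all genes. The call was lost without DMSO A (0.0853), DMSO B (0.0673) or 5C-E A (0.117). Of 12 macrophage markers 10 were lower in 5C-E than in DMSO (list median log2 -2.73) and of 8 hepatocyte markers 7 were lower. Of 10 stellate cell and fibroblast markers 2 were higher and 3 lower. The part of these markers in the Hmox1 value was not tested. Gclc, at 17.1 and 17.5 FPKM, and Gclm, at 14.1 and 15.4, lay close to the DMSO libraries. Nqo1 was at 0.92 ± 0.36 (edgeR adjusted p = 0.157), with the 5C-E libraries above those of DMSO.

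For 5C-S, with 1 library, differences from 5C are described without a test. The library lay below both 5C libraries in Slc7a11 (0.680 against 1.24 and 1.16 FPKM, a fitted log2 difference of -0.83), Gclc (-0.38), Gclm (-0.29), Nqo1 (-0.32), Nfe2l2 (-0.09) and Txnrd1 (-0.13). It lay above both in Hmox1 (0.34), Keap1 (0.25) and Srxn1 (0.16). With the GC and length offset the difference was -0.33 for Slc7a11, -0.35 for Gclc, 0.022 for Gclm, 0.076 for Hmox1, -0.033 for Keap1, -0.030 for Srxn1 and 0.0045 for Txnrd1, so that the sign changed for the last 3 and for Gclm.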

How the data were processed

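Libraries were made by the study with a NEBNext Ultra RNA kit and sequenced as paired-end reads on a NovaSeq instrument. The submitters' processing notes name GRCm39, featureCounts, Subread and DESeq2; the counter's version, annotation release and strand setting are not given in the sources used here. The deposited counts per gene were whole numbers, not normalized, and the deposited FPKM were the authors' values; count divided by FPKM gave 1 length per gene within 0.2% for 27140 of 27141 genes. Columns of per-sample values not used numbered 0.

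Counts were analysed with edgeR 4.0.16 in R 4.3.3 (TMM factors, filterByExpr by group with minimum count 10, glmQLFit, glmQLFTest), with all 13 libraries in 1 fit of group means (6 residual degrees of freedom, common biological coefficient of variation 0.261). Adjusted p-values are from this edgeR test, Benjamini-Hochberg over 19884 genes. The study's methods also name DESeq2. The single 5C-S library adds no degree of freedom. Alternatives used DESeq2 1.42.0, limma 3.58.1 on log2(FPKM + 1) and log2(FPKM + 0.1), RLE factors, total counts, other filters, only the compared groups, each library left out, and an offset per library for GC content and length (splines with 5 degrees of freedom, GC content known for 99.5% of genes tested). The script was tested on simulated data. Related genes were named by rule, up to 2 a list and direction with the largest change among those that passed. For each member up to 3 genes of most similar level were named, and some are not reported here. The members and lists were chosen with earlier results of these data known. Motifs were searched in promoters from GRCm39 and GENCODE.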

Additional observations from a re-analysis of the deposited data

How the results depend on the processing

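Of 118 single-gene results with a test, each recomputed under the alternatives that apply, 1266 of 1533 values kept direction and side of the threshold and 16 changed sign. Of 36 values of 9 members in 5C-S against 5C, which had no test, 4 changed sign. With the GC and length offset, Gclm (0.15), Hmox1 (-0.11), Keap1 (-0.051), Nfe2l2 (0.080) and Slc7a11 (0.043) changed sign in 5C-C against 5C, Nfe2l2 (0.047) and Txnrd1 (0.051) in 5C-G against 5C, and Slc7a11 (0.29) in 5C-C against DMSO. Txnrd1 in 5C against DMSO was at 0.043 with total counts and at 0.040 and 0.043 with limma, and ran from -0.13 to 0.092 when single libraries were left out. In the same way Nqo1 ran from -1.01 to 0.12 and Srxn1 from -0.11 to 0.064 in 5C-G against 5C, and Srxn1 from -0.20 to 0.027 in 5C-C against 5C.

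With a log2 fold change beyond 1 as well, members passing numbered 1 in 5C against DMSO, 3 in 5C-G, 2 in 5C-C and 0 in 5C-E against 5C, and 2 in 5C-F, 1 in 5C-C and 0 in 5C-E against DMSO. With the offset they numbered 3 in 5C-G, 1 in 5C-C and 4 in 5C-F against 5C, and 2 in 5C-G against DMSO. Over all genes 4042, 4852, 2249 and 1949 passed in these fits, in the same order. Fitting only the groups compared gave 6 in 5C against DMSO, 3 in 5C-E and 2 in 5C-F against 5C, and 2 each in 5C-E and 5C-G against DMSO, while over all genes the calls rose from 1261 to 5028 in 5C against DMSO and from 584 to 2319 in 5C-E against 5C. In 5C-E against 5C 0 passed with limma at either pseudocount, and with the smaller one 0 in 5C-E and 5C-G and 4 in 5C-F against DMSO. In 5C-F against 5C, DESeq2 gave 3, and RLE factors, no filter and the stricter filter 1 each. The cause of these changes was not tested. Leaving out single libraries, which leaves 1 library assumed to vary like the others, gave 1 to 1 in 5C against DMSO, 4 to 5 in 5C-G, 2 to 4 in 5C-C and always 0 in the other removals against 5C, and 1 to 6 in 5C-F, 0 to 4 in 5C-G, 0 to 1 in 5C-E and 1 to 4 in 5C-C against DMSO. Total counts alone shifted the median of all genes by -0.13 in 5C-G and -0.16 in 5C-C against 5C and 0.15 in 5C-E against DMSO. No paired analysis was possible because the labels give the groups no shared replicate numbers and the columns carry none that match a sample. With 2 libraries a group, a change that missed the threshold is not shown to be absent.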
